A study of Homo sapiens with 12 samples.

Results

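The respiratory chain was taken as the genes of the expression table named as subunits of the 5 oxidative phosphorylation complexes: NDUFA, NDUFB, NDUFC, NDUFS and NDUFV genes, SDHA to SDHD, the UQCR genes and CYC1, COX4 to COX8 genes, ATP5F1, ATP5M and ATP5P genes, and the protein genes of the mitochondrial genome. Names with a pseudogene suffix, or with a hyphen other than in the MT- prefix, were left out, which removed 42 rows. MT-ATP6 and MT-ATP8 were kept, although their last letter and digit could be read as such a suffix. This gave 95 members of 27411 genes, of which 82 are encoded in the nucleus and 13 in mitochondria. By complex, NDUFA4 and NDUFA4L2 were counted with complex IV and not with complex I. The cells were Kasumi-1, a human acute myeloid leukaemia line that the labels give as wild type. They carried, after lentiviral delivery, either a stable short hairpin RNA (shRNA) against WTAP, a subunit of the complex that writes N6-methyladenosine (m6A) on mRNA, or a scramble shRNA, the control. All cells were selected with puromycin at 2 µg/ml from 48 h after delivery for at least 24 h. The hairpin's sequence and the clonality of each line were not stated in the labels. The 12 libraries were 3 each of control input, shWTAP input, control m6A immunoprecipitation (IP) and shWTAP IP, and levels came from the 6 inputs, which were poly(A)-selected RNA.

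The respiratory chain passes electrons from NADH (complex I) and succinate (complex II) through complex III and complex IV to oxygen, and complex V uses the resulting proton gradient to make ATP. Complex II is wholly encoded in the nucleus, while the catalytic or membrane cores of the others hold subunits made from the compact mitochondrial genome, whose mRNAs are cut from long polycistronic transcripts and carry short poly(A) tails. Stem-like cells of acute myeloid leukaemia are known to rely on oxidative phosphorylation.

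WTAP itself was at 11.5, 11.2 and 11.7 FPKM (fragments scaled to transcript length and library total, the authors' unit) in the controls and at 6.97, 6.48 and 5.69 in the shWTAP libraries. Its fitted log2 difference, shWTAP minus control on the log2(FPKM + 1) scale, was -0.76 ± 0.08 (SE, n = 3 against 3, limma adjusted p = 0.00663). The groups did not overlap, and the exact 2-sided permutation p was 0.1, the smallest that 3 against 3 allows. Of 7 markers of acute myeloid blasts, 6 were at a mean of 1 FPKM or more, with MPO, SPI1, CD33, KIT, ANPEP and CD34 present, and their summed level was 2200 to 2257 FPKM in controls and 2423 to 2465 in shWTAP. Erythroid and fibroblast markers were below 1 FPKM, while the T cell marker CD3D, the B cell marker CD79A and the epithelial marker EPCAM were above it. The T cell list summed to 50.2 to 52.8 FPKM in controls and 50.4 to 61.6 in shWTAP, and the epithelial list to 41.1 to 43.2 and 38.7 to 50.6. The part of these markers in the results was not tested. In bulk RNA, fewer cells of a type and less RNA per cell cannot be told apart.

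Control 3 and shWTAP 1 of the input libraries stood apart in the RNA of the mitochondrial genome. The 13 mitochondrially encoded mRNAs took 0.306%, 0.310% and 0.634% of all FPKM in controls 1, 2 and 3. In shWTAP 1, 2 and 3 they took 0.631%, 0.300% and 0.333%. One library of each group was thus near 2 times the other libraries of its group, and the groups overlapped. The nuclear members took 1.42% of FPKM in control 3 and 1.43% in shWTAP 1, the lowest of the 6 libraries. In the others they took 1.54% to 1.601%. Results that rest on these libraries are therefore given with and without them.

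Nearly all of the respiratory chain was expressed. A gene was tested when it reached 1 FPKM in at least 3 libraries, and 93 of the 95 members did. The exceptions were COX8C, whose mean was 0.0193 FPKM in controls, and ATP5MGL, at 0.0219 FPKM. The nuclear members had a median level of 24.6 FPKM over the 6 libraries, against 5.81 FPKM for all tested genes. Their levels ran from 2.70 FPKM for NDUFA4L2, a paralogue of NDUFA4 known as induced by hypoxia, to 387 FPKM for ATP5F1B, the catalytic beta subunit of ATP synthase.

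**Figure D1:**
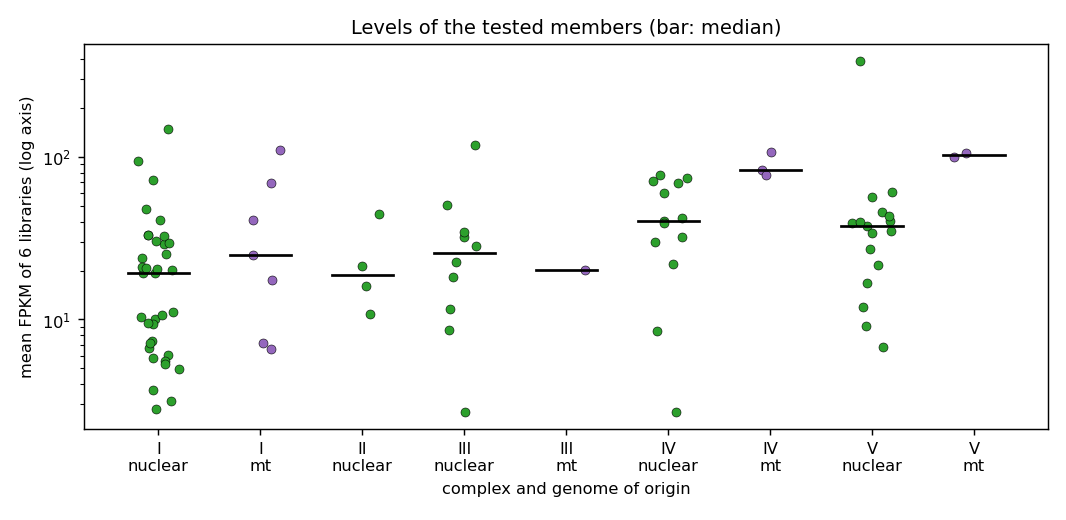
Mean FPKM over the 6 input libraries (log axis) of each tested member, by complex and by genome of origin (mt, mitochondrial), with a bar at the median. Nuclear medians run from 18.7 FPKM in complex II to 40.5 FPKM in complex IV, and ATP5F1B at 387 FPKM is the highest point.

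Subunits of the same complex differed widely in FPKM, a per-length scale. In complex I the highest were NDUFS5, an accessory subunit, with a mean of 147.6 FPKM over the 6 libraries, and NDUFA1, another small accessory subunit, whose controls were 89.5, 102 and 88.6 FPKM and whose shWTAP libraries were 99.98, 98.6 and 85.5 FPKM. The lowest were NDUFS7, which carries the last iron-sulfur cluster before ubiquinone, at 2.82 ± 0.05 FPKM in controls (SD, n = 3) and NDUFA9 at 3.11 ± 0.24 FPKM. The order of the complex was thus led by accessory subunits, with subunits of both kinds at its foot. In complex III, UQCRH, the hinge protein, was at 114 ± 13.6 FPKM in controls, and its intronless paralogue UQCRHL at 2.16 ± 0.53 FPKM. In complex V, the 3 genes that encode the same mature c subunit, ATP5MC1, ATP5MC2 and ATP5MC3, were at 19.4 ± 0.78, 36.6 ± 3.64 and 15.6 ± 0.89 FPKM in controls. For the tissue isoforms of complex IV, COX4I1, COX6A1, COX6B1, COX7A2 and COX8A had control means of 39.4 FPKM or more, and COX8C was near 0. COX4I2, COX6A2, COX6B2, COX7A1 and COX7B2 were not among the 27411 genes by these names, so they have no value.

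In WTAP-silenced cells most of the chain stayed close to its control level. Of the 93 tested members, 4 were called at a Benjamini-Hochberg adjusted p under 0.05 in limma's fit over all 11383 tested genes, 1 higher and 3 lower. That is 4.30% of members, beside 3.89% of all tested genes (1.48% higher and 2.42% lower). The median log2 difference was 0.03 for nuclear members and 0.08 for mitochondrially encoded ones, beside -0.03 for all tested genes. By complex, the nuclear medians were 0.02 for complex I, -0.14 for complex II, 0.05 for complex III, -0.03 for complex IV and 0.07 for complex V. The groups did not overlap for 24 members, 14 higher and 10 lower, or 25.8%, beside 28.2% of all tested genes. By either count the members were near the background. Without control 3 and shWTAP 1, with 2 libraries against 2, limma called 37 members (19 higher and 18 lower, 39.8%), beside 27.6% of all tested genes. These 2 libraries were picked by the levels of the mitochondrially encoded members, so calls among those members were not independent of the choice.

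**Figure D2:**
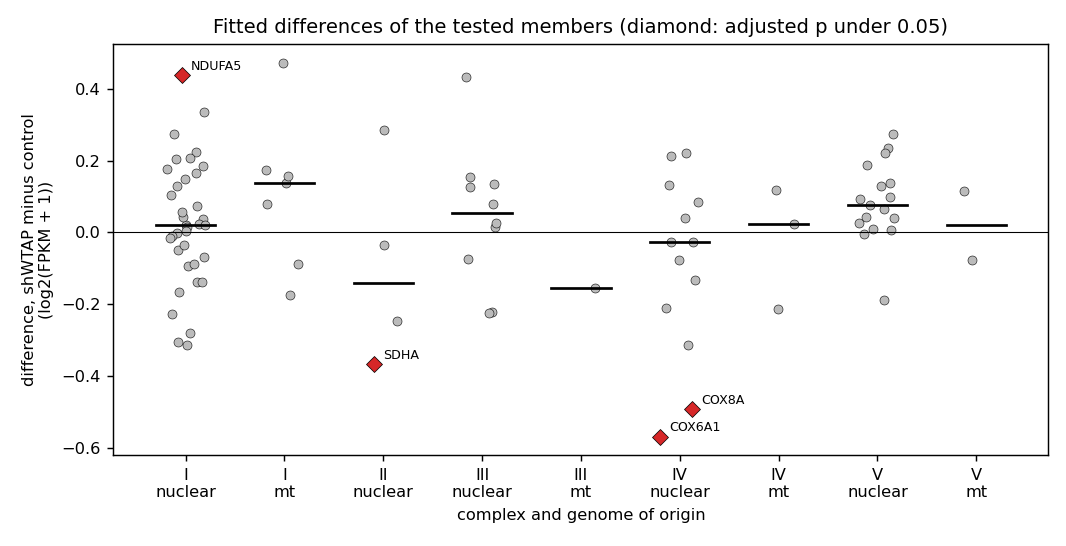
Fitted difference, shWTAP minus control on the log2(FPKM + 1) scale, of each of the 93 tested members by complex and genome of origin (mt, mitochondrial), with a bar at the median and a diamond where the adjusted p was under 0.05. COX6A1 and COX8A lie lowest, at -0.57 and -0.49, and all 13 mitochondrially encoded members are grey.

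Complex IV, cytochrome c oxidase, held the members with the lowest fitted differences. COX6A1, the ubiquitous isoform of a subunit at the dimer interface, was at 88.9, 89.7 and 78.2 FPKM in controls and at 59.2, 57.5 and 55.2 FPKM in shWTAP. Every shWTAP library lay below every control. The log2 difference was -0.57 ± 0.07 (SE, adjusted p = 0.0134), which left 66.9% of the control mean. The row of its pseudogene COX6A1P2 lay between 2.41 and 6.79 FPKM.

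COX8A, the ubiquitous isoform of a small membrane subunit, was at 89.0, 89.6 and 81.5 FPKM in controls and at 70.5, 55.6 and 58.6 FPKM in shWTAP. The groups again did not overlap, with shWTAP 1 nearest to the controls. Its log2 difference was -0.49 ± 0.10 (adjusted p = 0.0423). The other 11 tested nuclear subunits of complex IV were not called. COX6C, a small membrane subunit, was at 34.3, 36.4 and 28.9 FPKM in controls and at 33.0, 23.9 and 23.2 in shWTAP, where shWTAP 1 lay among the controls (-0.31, adjusted p = 0.242). COX7A2L, a factor of supercomplex assembly, was at 7.45, 7.70 and 8.21 FPKM in controls and at 8.81, 9.56 and 9.14 in shWTAP, with no overlap (0.21, adjusted p = 0.122).

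SDHA, the flavoprotein of complex II that oxidises succinate and also serves the citric acid cycle, was at 18.1, 19.4 and 17.2 FPKM in controls and at 13.2, 13.95 and 14.6 FPKM in shWTAP. All 3 shWTAP libraries were lower, by a log2 difference of -0.37 ± 0.07 (adjusted p = 0.0421). The row of the pseudogene SDHAP1, which may share reads with SDHA, lay between 4.35 and 5.54 FPKM, so how fragments were split between these rows is uncertain. SDHB, the iron-sulfur subunit, was at 50.3, 49.1 and 45.6 FPKM in controls and at 43.3, 40.2 and 38.3 in shWTAP, without overlap but not called (-0.25, adjusted p = 0.101). SDHD, one of the membrane anchors, lay the other way, at 17.8, 18.6 and 21.0 FPKM in controls and at 23.8, 23.5 and 23.2 in shWTAP (0.28, adjusted p = 0.0802). SDHC, the other anchor, overlapped between the groups (-0.04, adjusted p = 0.796). The 4 subunits of complex II thus lay on both sides of 0.

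NDUFA5, an accessory subunit of the matrix arm of complex I, was the member that rose. It was at 4.85, 4.02 and 4.94 FPKM in controls and at 7.06, 6.43 and 6.23 FPKM in shWTAP, with no overlap. The log2 difference was 0.44 ± 0.09 (adjusted p = 0.0448), or 143% of the control mean. The pseudogene row NDUFA5P11 ran from 1.31 to 2.37 FPKM in controls and from 1.80 to 4.60 in shWTAP, and the part of shared reads in the result was not tested. The other 35 nuclear subunits of complex I were not called. The accessory subunit NDUFB5 was at 8.85, 8.98 and 9.99 FPKM in controls and at 11.6, 11.5 and 11.1 in shWTAP (0.27, adjusted p = 0.0725). NDUFC2, whose row overlaps the read-through gene NDUFC2-KCTD14 on the same strand, was at 15.6, 16.4 and 19.3 FPKM in controls and at 22.5, 21.8 and 21.0 in shWTAP (0.33, adjusted p = 0.0767). Both had groups that did not overlap, with every shWTAP library above every control, and neither was called. The row of NDUFC2-KCTD14 lay the other way, also without overlap, at 5.38, 8.46 and 5.27 FPKM in controls and at 2.67, 5.14 and 3.55 in shWTAP. The part of shared fragments in the NDUFC2 difference was not tested.

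**Figure D3:**
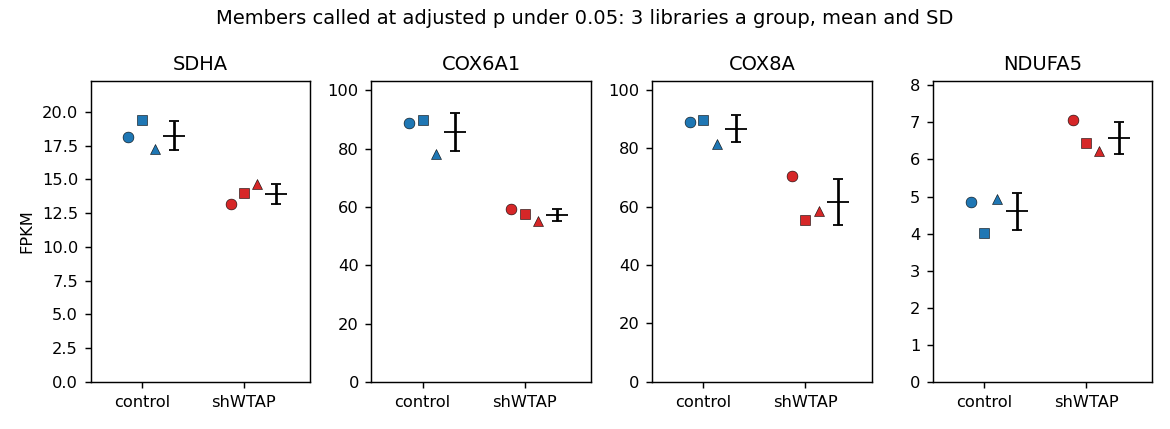
FPKM of the 4 members with an adjusted p under 0.05 in each of the 3 control (blue) and 3 shWTAP (red) input libraries, with mean and SD, on axes that start at 0. In SDHA, COX6A1 and COX8A every red point is below every blue point, and in NDUFA5 every red point, from 6.23 to 7.06 FPKM, is above.

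These 4 calls were near the threshold and did not outlast the loss of most single libraries. Leaving out control 1, control 2, shWTAP 2 or shWTAP 3 ended all 4, with adjusted p from 0.0579 for COX6A1 to 0.174 for COX8A. Without control 3 the COX6A1 call held (0.0338) and the other 3 were lost (0.0755 to 0.0865). Without shWTAP 1 all 4 held (0.00271 to 0.0232), as they did without both control 3 and shWTAP 1 (0.00219 to 0.0218). The direction of each of the 4 was the same in all 17 alternatives tried.

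No subunit of complexes III and V was called among the 10 and 17 nuclear members tested. UQCRB, the ubiquinone-binding protein, was at 9.76, 9.87 and 8.63 FPKM in controls and at 8.57, 7.60 and 7.59 in shWTAP (-0.22, adjusted p = 0.152). CYC1, cytochrome c1, was at 58.5, 57.6 and 48.6 FPKM in controls and at 46.0, 48.6 and 45.8 in shWTAP, where shWTAP 2 lay just under control 3 (-0.22, adjusted p = 0.17). UQCRC2, a core protein of complex III, was at 26.0, 27.3 and 27.4 FPKM in controls and at 28.1, 30.9 and 31.3 in shWTAP (0.15, adjusted p = 0.22). UQCRHL had the largest fitted value of complex III, 0.43, with overlapping groups and an adjusted p of 0.161.

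In ATP synthase, 15 of the 17 tested nuclear members had a fitted value above 0, though none was called. Over all tested genes the fitted value was above 0 in 5119 (45.0%), and over the 80 tested nuclear members in 49. The sign turned for 8 of the 17 when 1 library or another was left out. ATP5MC1, one of the c subunit genes, was at 18.5, 20.1 and 19.6 FPKM in controls and at 21.5, 25.1 and 24.6 in shWTAP (0.27, adjusted p = 0.0956). ATP5F1C, the central gamma shaft, had the lowest fitted value of the complex (-0.19, adjusted p = 0.102). Its levels were 64.8, 64.9 and 64.7 FPKM in controls and 57.5, 57.3 and 55.3 in shWTAP. ATP5PO, the stalk subunit that confers oligomycin sensitivity, was at 37.6, 39.0 and 42.8 FPKM in controls and at 43.6, 48.2 and 47.7 in shWTAP (0.22, adjusted p = 0.139). The groups of these 3 did not overlap. ATP5F1B, the most abundant member, was at 368, 387 and 394 FPKM in controls and at 378, 397 and 396 in shWTAP, which overlapped.

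Short stretches before the RefSeq start of the 4 called genes are shown because nuclear respiratory genes are known to share promoter sites for NRF-1 and GABP. The capitals mark matches to CGCANGCG (or CGCNTGCG on the other strand), the core of the NRF-1 site, or to ACTTCCGG (or CCGGAAGT), a GABP site. The stretches are chr5:218139-218227 for SDHA (plus strand), chr12:120437878-120437917 for COX6A1 (plus), chr11:63974585-63974619 for COX8A (plus) and chr7:123557952-123557991 for NDUFA5 (minus), from RefSeq on GRCh38.p14.
SDHA: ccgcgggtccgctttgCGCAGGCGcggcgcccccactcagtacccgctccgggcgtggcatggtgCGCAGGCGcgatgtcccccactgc
COX6A1: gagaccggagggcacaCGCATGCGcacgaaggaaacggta
NDUFA5: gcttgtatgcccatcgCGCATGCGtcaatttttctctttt
COX8A: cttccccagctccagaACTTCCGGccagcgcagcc
SDHA, COX6A1 and NDUFA5 hold the NRF-1 core and COX8A the GABP letters. The stretches hold only bases before both the RefSeq start and the start in the expression table. SDHA also held the core at -67 to -60 and at -18 to -11 from the RefSeq start, in bases not shown. SDHA and COX6A1 were lower and NDUFA5 was higher, and a part of NRF-1 in these differences was not tested.

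Of the 82 nuclear members, 63 had a promoter entry of 250 bases before to 50 bases after the start. The NRF-1 core was in 24 of them (38.1%), beside 12.0% of all 27305 genes with an entry and 24.0% of the 8166 such genes that were tested. The GABP letters were in 11 (17.5%, beside 4.95% and 11.3%). AAGATGGC (or GCCATCTT), a site of YY1, was in 12 (19.0%, beside 3.52% and 7.43%). A match describes the letters of the window and shows no binding.

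The table placed COX6A1 at 120438090 to 120440737 on chromosome 12, COX8A at 63974620 to 63976543 on chromosome 11, SDHA at 218241 to 257082 on chromosome 5 and NDUFA5 at 123536997 to 123557904 on chromosome 7. The labels do not state its genome build. All 78 members with a RefSeq gene of the same symbol overlapped that gene on GRCh38.p14.

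Among the mitochondrially encoded members none of the 13 was called in either direction (adjusted p from 0.454 for MT-ND3 to 0.974 for MT-CO2), and 0 had an unadjusted limma p under 0.05. MT-ND1, a core membrane subunit of complex I, was at 17.2, 18.1 and 36.7 FPKM in controls and at 34.5, 21.9 and 22.0 in shWTAP. MT-CYB, the cytochrome b of complex III, was at 16.6, 15.4 and 30.2 FPKM in controls and at 33.9, 11.6 and 13.9 in shWTAP. The high values were those of control 3 and shWTAP 1 in both genes. MT-CO1, the catalytic subunit of complex IV, was at 86.8, 87.2 and 164 FPKM in controls and at 163, 67.6 and 71.8 in shWTAP. MT-ATP6, the proton channel of complex V, was at 70.9, 66.5 and 151 FPKM in controls and at 162, 70.3 and 80.1 in shWTAP. The groups overlapped for all 13.

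**Figure D4:**
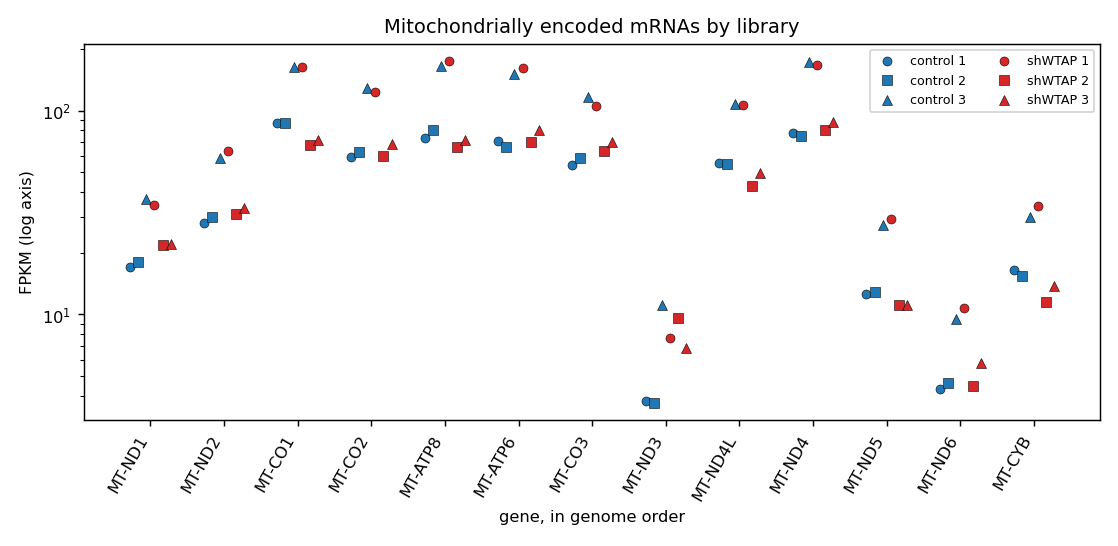
FPKM (log axis) of the 13 mitochondrially encoded mRNAs in genome order, with 1 point for each of the 3 control (blue) and 3 shWTAP (red) input libraries. Control 3 and shWTAP 1 lie above the others for all genes but MT-ND3, where shWTAP 1 is within its group.

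Relative to the mean of controls 1 and 2, control 3 was 1.89 to 3.01 times as high across the 13 mRNAs, with a median of 2.11. Relative to the mean of shWTAP 2 and 3, shWTAP 1 was 0.927 to 2.67 times as high, with a median of 2.09 and 12 of 13 above 1.5. The same ratios over the 80 tested nuclear members had medians of 0.925 and 0.951, and none was above 1.5. The mitochondrial rRNA MT-RNR2 was high in the same libraries, at 22.3, 23.6 and 46.8 FPKM in controls and 41.1, 20.7 and 23.7 in shWTAP. The row of the nuclear copy MTATP6P1, which is near-identical to mitochondrial sequence, was at 12.1, 9.38 and 32.1 FPKM in controls and at 31.4 and 6.81 in shWTAP 1 and 2 and was listed at 0 in shWTAP 3. It equalled at most 2.72% of the 13 mRNAs' summed FPKM, but by its name it is a copy of MT-ATP6 alone. MT-ATP6 was at 70.9, 66.5 and 151 FPKM in controls and at 162, 70.3 and 80.1 in shWTAP. How fragments were split between these rows was not stated.

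Without these 2 libraries, limma called 6 of the 13. MT-ND3 (0.96, adjusted p = 0.0107), MT-ND1 (0.30, 0.0103) and MT-CO3 (0.24, 0.0463) were higher in shWTAP. MT-CO1 (-0.32, 0.0087), MT-ND4L (-0.25, 0.0477) and MT-ND5 (-0.18, 0.0386) were lower. This fit compares 2 libraries with 2, and 27.6% of all tested genes were called in it. The 2 libraries were left out because of the levels of these same 13 mRNAs, which narrows their spread within each group. These calls therefore describe the remaining libraries and give no independent support for a difference.

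The makeup of the mitochondrial mRNA pool can be compared whatever its total. MT-CO1 made up 15.5%, 15.3% and 13.9% of the 13 mRNAs' summed FPKM in controls and 13.8%, 12.5% and 12.1% in shWTAP, and the groups did not overlap by a narrow margin between control 3 and shWTAP 1. MT-ND4L, a small membrane subunit of complex I, lay on the same side, at 9.91%, 9.58% and 9.08% in controls and 8.96%, 7.93% and 8.31% in shWTAP. MT-ATP6 was at 12.7%, 11.7% and 12.8% in controls and 13.7%, 13.001% and 13.5% in shWTAP. The row of its copy MTATP6P1, listed at 0 in shWTAP 3 only, may hold fragments of MT-ATP6. The separation of the MT-ATP6 shares may thus depend on how fragments were assigned, which was not tested. MT-ND2 and MT-ND6 were also higher in all 3 shWTAP libraries, at 5.59 ± 0.19% against 5.08 ± 0.17% and 0.901 ± 0.07% against 0.794 ± 0.02% (SD, n = 3 each). The other 8 overlapped. Shares add up to a fixed total, so they do not vary independently, and no test was run on them.

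**Figure D5:**
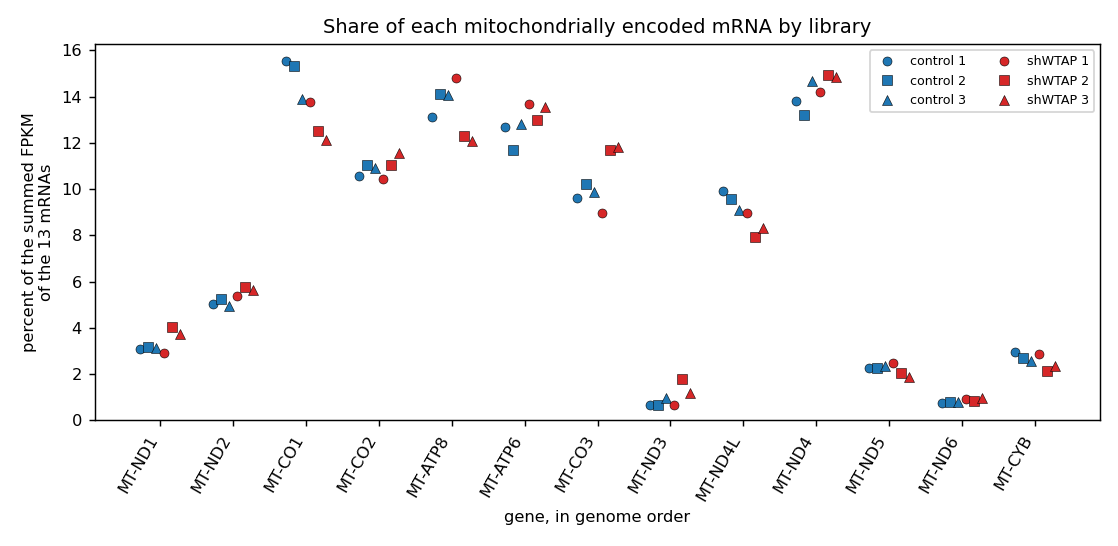
Percent of the summed FPKM of the 13 mitochondrially encoded mRNAs held by each, in genome order, with 1 point for each control (blue) and shWTAP (red) input library. MT-CO1 is lower in all 3 shWTAP libraries (12.1% to 13.8%) than in the controls (13.9% to 15.5%), and MT-CO3 splits the shWTAP libraries.

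Ratios between the mRNAs showed where shWTAP 1 went with the controls. MT-CO1 over MT-CO3 was 1.61, 1.496 and 1.41 in controls and 1.54, 1.07 and 1.03 in shWTAP. MT-CO1 over MT-ND1 was 5.06, 4.82 and 4.47 in controls and 4.72, 3.08 and 3.26 in shWTAP. In both, shWTAP 2 and 3 lay below all other libraries and shWTAP 1 lay within the control range. MT-ATP8 and MT-ATP6, like MT-ND4L and MT-ND4, overlap in the genome, and how fragments in the overlap were assigned was not stated.

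Genes that build and serve the chain were read from 12 lists of assembly factors, carriers, citric acid cycle enzymes, regulators, mitochondrial RNA factors, ribosome proteins, mitochondrial rRNA and tRNA genes and nuclear copies of the mitochondrial genome. Of 195 tested genes in the 10 lists other than the rRNA and tRNA genes and the nuclear copies, 6 were called, all lower, or 3.08%, beside 3.89% of all tested genes. CS, citrate synthase of the citric acid cycle, was at 57.2, 58.1 and 60.6 FPKM in controls and at 38.0, 36.5 and 36.1 in shWTAP, with no overlap (-0.66 ± 0.06 SE, adjusted p = 0.00518). It was 1 of 13 cycle genes tested. COA4, a complex IV assembly factor, was called lower (-0.57, adjusted p = 0.0392), as 1 of the 21 tested for that complex. PPRC1, a coactivator of NRF-1 related to PGC-1, was at 9.03, 8.54 and 9.07 FPKM in controls and at 6.62, 6.86 and 6.83 in shWTAP (-0.35, adjusted p = 0.0325), as 1 of 7 regulators. Of 78 mitochondrial ribosome proteins, MRPS10 (-0.65), MRPL3 (-0.60) and MRPL17 (-0.49) were lower (adjusted p = 0.0481, 0.0423 and 0.0307). The assembly lists of complexes I (16 tested), II (4), III (6) and V (6), the 15 carriers and related genes and the 29 mitochondrial RNA factors held no call in limma, with 3, 2, 0, 2, 3 and 1 genes at an unadjusted p under 0.05. Nor did the 7 tested mitochondrial rRNA and tRNA genes or the 3 tested nuclear copies, which had 0 and 0.

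The m6A peak lists were 1 for each condition, and the fold enrichment of IP over input and the p-value of a peak are the authors'. Each peak thus lacks a replicate, and the lists were not tested against each other. In the control list 110 peaks were assigned to 57 members, and in the shWTAP list 113 peaks to 62. That is 60.0% and 65.3% of the 95 members, beside 77.2% and 77.1% of all tested genes. In both lists stood 53 members (55.8%, beside 72.8%), and 29 members were in neither. Peaks of the same list can overlap one another, so a count of peaks is not a count of separate sites. Of the nuclear members' peaks in the control list, 59.6% were annotated to the 3' UTR, against 46.8% of all peaks of that list. The median enrichment of nuclear members' peaks was 3.22 in the control list, whose overall median was 6.77, and 3.25 in the shWTAP list, whose overall median was 6.75. Of the control peaks of members, 96 of 110 (87.3%) overlapped a peak of the other list by at least 1 base, beside 82.6% of all control peaks. From the shWTAP list 94 of 113 did so (83.2%, beside 82.8% of all its peaks).

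The assigned gene was not always the gene under the peak. Of the member peaks, 11 in the control list and 12 in the shWTAP list had no block inside the span the expression table gives for their gene. These include the highest enrichment among peaks assigned to members in each list, 45.5 and 48.4, assigned to NDUFA4L2. They also include 2 of the 3 peaks of NDUFA13 in each list. An shWTAP peak of 76.2 lay inside NDUFB2 but was assigned to NDUFB2-AS1. Counted by position, a rule chosen after seeing the data, 66 members held part of a control peak and 69 of an shWTAP peak (69.5% and 72.6%, beside 85.0% and 84.9% of all tested genes), and 61 were in both (64.2%, beside 82.2%). This rule took the whole span of a gene, introns included, and did not use strand. A peak counted this way can thus belong to an overlapping or neighbouring gene. Among peaks inside their gene, ATP5MC3 reached 30.5 in the control list and 24.1 in the shWTAP list, and NDUFC1, an accessory subunit of complex I, 15.8 and 23.2. NDUFB9 reached 24.8 in the control list and NDUFV3 19.8 in the shWTAP list, both of complex I. An shWTAP peak with the same start as that of NDUFB9, assigned to MTSS1, had 18.3. The control peak of NDUFV3 that overlapped in span had 5.83.

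COX6A1 and SDHA, among the called genes, held peaks in both lists, while COX8A and NDUFA5 held none in either by assignment or by position. COX6A1 had 4 in each list. The one with the highest enrichment, at chr12:120438090-120438707 in the control list, was annotated to the 5' UTR. Its enrichment was 3.55, and its counterpart in the shWTAP list had 4.38. The others lay the other way, at 1.87, 2.30 and 2.27 in the control list and at 1.77, 1.69 and 1.71 in the shWTAP list. Within each list these others overlap one another in span, so they are not separate observations. SDHA had 4 in the control list and 2 in the shWTAP list. One of the control peaks of SDHA, annotated as exon, had no overlapping shWTAP peak. Many abundant members also held no peak: the nuclear members with no peak inside in either list numbered 21 and had a median level of 34.2 FPKM, against 20.7 FPKM for the 61 others, and ATP5F1B was among the 21.

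By assignment 4 members stood in the control list alone, NDUFB4, NDUFB7, NDUFB9 and COX7A2L, and 9 in the shWTAP list alone, UQCRC1, UQCR10, NDUFS1, NDUFS4, NDUFA9, NDUFB5, COX6C, MT-CYB and MT-CO1. These are 4.21% and 9.47% of the 95 members, beside 4.45% and 4.36% of all tested genes, with no test of the difference. By position the first set was NDUFB4, NDUFB7, COX7A2L, ATP5PO and ATP5PB, and the second was UQCRC1, NDUFA9, NDUFS4, NDUFB5, NDUFB3, COX7B, ATP5F1E and MT-CO1. These 5 and 8 members are 5.26% and 8.42%, beside 2.79% and 2.68% of all tested genes. The control peaks in ATP5PO and ATP5PB were assigned to LINC00649 and WDR77, and the shWTAP peaks in NDUFB3 and COX7B to RNU6-1206P and ATP7A. NDUFB4, NDUFB7 and COX7A2L were thus in the control list alone by both rules. Their peaks had enrichments of 1.21, 1.60 and 6.77 with p of 0.0045, 7.6e-07 and 0.036. NDUFA9, NDUFB5, NDUFS4, UQCRC1 and MT-CO1 were in the shWTAP list alone by both rules, with enrichments of 5.79, 3.70, 2.60, 7.72 and 1.23. None of these 8 members was called in the input RNA.

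Peaks covered most of the mitochondrial mRNAs in both lists. They spanned the whole annotated gene for 10 of the 13 in the control list and 11 in the shWTAP list. MT-CYB was covered over 82.0% of its length by a control peak assigned to the neighbouring tRNA gene MT-TT, and over 100% in the shWTAP list, where the peak carried its own name. MT-CO3 was covered over 18.6% and 37.2%. MT-CO1 held no control peak, and in the shWTAP list it held a peak of 119 bases, or 7.72% of its length. Enrichment within the control list was highest for MT-ND2 (9.46) and MT-ND6 (9.36), the latter encoded on the other strand, and lowest for MT-CO3 (1.59). Within the shWTAP list the same 2 led, with MT-ND6 at 10.7 and MT-ND2 at 10.0. A peak that spans a whole gene locates no site, and a list of peaks gives no measure of m6A loss or gain.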

How the data were processed

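The authors deposited FPKM values of 27411 genes in 6 input libraries, per the file headers. No header or label states how they were made or on which genome build. The tools named in the submitters' processing notes, without role or version, are HISAT2, fastp, ChIPseeker and HOMER. FPKM carries no depth, so the sequencing depth is unknown and no counting interval was set. The peak lists, deposited 1 per condition, hold a fold enrichment (a ratio), a p-value and log10 p and false discovery scores from the authors, per the file headers. Groups and numbers came from the sample titles. Per the labels, a group's 3 libraries are biological replicates.

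Differences were fitted in R 4.3.3 by limma 3.58.1, with a trended eBayes after lmFit, on log2(FPKM + 1), which understates changes of low genes, over genes at 1 FPKM or more in at least 3 libraries, with Benjamini-Hochberg adjustment over all 11383. The script was tested on simulated data. Peak starts were taken as counted from 0 and printed from 1. Replicate numbers were not used to pair the libraries in the main fit. Same-numbered deviations from the group means correlated at -0.11, 0.17 and -0.14. With 3 libraries a group this cannot exclude a pairing. The members, lists, rule for named genes and tests were chosen with earlier results of these data known. The rule names WTAP, called genes, all 13 mitochondrial members, the smallest adjusted p and the extremes of level by complex, isoform pairs, members with a peak in 1 list, and the 5 highest enrichments. Alternatives were other pseudocounts, filters, scalings and weights, libraries left out, the replicate block, and other peak thresholds and overlaps. IP values per gene were not analysed here. A result that the rule would name is not reported here.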

Additional observations from a re-analysis of the deposited data

How the results depend on the processing

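The log2 difference of WTAP kept its sign and its call in all 17 alternatives, and the counts of members with peaks stayed within 1.5 times. Counts of calls did not. Over all tested genes limma called 443, but 82 with no filter, 672 with quantile normalization, 77 with the replicate block, 4637 with array weights, 3142 without control 3 and shWTAP 1, and 46 to 2751 with 1 library left out (the most without shWTAP 1). For nuclear members the 4 calls became 0 with no filter, 1 with the block, 35 with array weights, 31 without both libraries and 0 to 22 with 1 library left out. For mitochondrially encoded members 0 became 1 with array weights and 6 without both libraries, which were picked by these members' own levels. For the companion lists 6 became 1 with no filter, 11 with quantile normalization, 10 with median centring, 2 with the block, 74 with array weights, 43 without both libraries and 1 to 33 with 1 library left out. Quantile normalization moved the split from 168 higher and 275 lower to 327 and 345, and median centring to 323 and 339; members then split 4 higher and 2 lower in both, from 1 and 3. The correlations of deviations showed no pairing of replicate numbers but cannot exclude one, and control 3 deviated most like shWTAP 1 (0.31).

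With 1 library left out, the fitted sign turned for 27 of the 80 tested nuclear members, beside 27.5% of all tested genes. Among the nuclear members whose difference is printed, it turned for SDHC (-0.072 to 0.0096). It also turned for 12 mitochondrial mRNAs, all but MT-ND3. The log2 differences ran from -0.25 to 0.49 for MT-ATP6, -0.52 to 0.29 for MT-ATP8, -0.62 to 0.088 for MT-CO1, -0.29 to 0.38 for MT-CO2, -0.10 to 0.46 for MT-CO3, -0.61 to 0.14 for MT-CYB, -0.035 to 0.51 for MT-ND1, -0.18 to 0.46 for MT-ND2, -0.25 to 0.47 for MT-ND4, -0.57 to 0.14 for MT-ND4L, -0.53 to 0.26 for MT-ND5 and -0.16 to 0.47 for MT-ND6. Their median ran from -0.25 without shWTAP 1 to 0.46 without control 3. The cause was not tested. With 3 libraries a group and no depth, small differences of low members were not resolved.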
